A study of Rattus norvegicus with 6 samples.

Results

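The set described here is 10 genes that encode glycolytic enzymes and lactate dehydrogenase subunits: Hk1, Hk2, Pfkm, Aldoa, Aldoc, Gapdh, Pgam1, Pkm, Ldha and Ldhb. They are 10 of 28358 genes in the tables, and all 10 had counts high enough to enter the comparison, which covered 13242 genes. The genes were chosen by name with earlier results of this same comparison known, so their differences between the groups are given as a description with no test. The samples were neuroretinas of 14-month-old male GK (Goto-Kakizaki) rats, a lean inbred strain that is diabetic by inheritance, profiled by RNA sequencing. A single dose of 5 µL of PLGA microspheres, a biodegradable polymer carrier, had been placed in the vitreous 2 months before the retina was taken. In 3 samples the microspheres held no drug (non-loaded), and in the other 3 they held 6.2 µg of spironolactone, which blocks the mineralocorticoid receptor. All 6 samples thus carried the diabetic background and an injection of microspheres, and the comparison is between drug and no drug. The labels do not say whether the samples of a group came from separate animals, so SDs and p-values reflect how far these samples lay apart, which may be technical.

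Glycolysis turns glucose into pyruvate, and lactate dehydrogenase interconverts pyruvate and lactate. The retina is known for aerobic glycolysis: photoreceptors turn much of their glucose into lactate even with oxygen present, and express Hk2, Pkm (with its M2 splice form) and Ldha strongly. Lactate leaves and enters cells through monocarboxylate transporters such as MCT1, and can serve Müller glia and the pigment epithelium as fuel.

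Each library held 9996198 to 12589466 expected counts, which are RSEM's estimates of the reads of each gene. The 10 genes were abundant, with 1998 to 26412 counts per gene and library. As deposited, before any rounding, all 60 of these values were exactly whole numbers. Levels between groups are given as CPM, counts scaled to library size with TMM factors. A gene is called when its p from edgeR's quasi-likelihood test, adjusted over all tested genes, is under 0.05. By this rule 2.63% of tested genes were called in either direction, 1.87% higher and 0.763% lower with spironolactone. Of the 13242 tested genes, 2098 had an unadjusted p under 0.05.

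With spironolactone, 4 of the 10 genes were called lower and 0 were called higher, against the 0.763% of all tested genes called lower. The 4 were Gapdh, Pgam1, Pkm and Ldha, which act in the lower, energy-yielding stretch of glycolysis and at the step to lactate. Their mean CPM were lower by 17.7% to 23.8%. Both hexokinase genes, at the entry of the pathway, were not called. Pgk1 and Eno1, outside the set but in the same lower stretch, were not called by edgeR either. The median log2 fold change of the 10 genes was −0.18, beside −0.0027 over all tested genes. In 7 genes every spironolactone library lay below every non-loaded library, which was so for 9.48% of all tested genes. On the TPM scale this held for 5 genes, since Pfkm and Ldhb then overlapped. The share of all tested genes was counted on CPM only, so the TPM count has no share beside it. Since these differences chose the genes, nothing is read from either count.

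**Figure D1:**
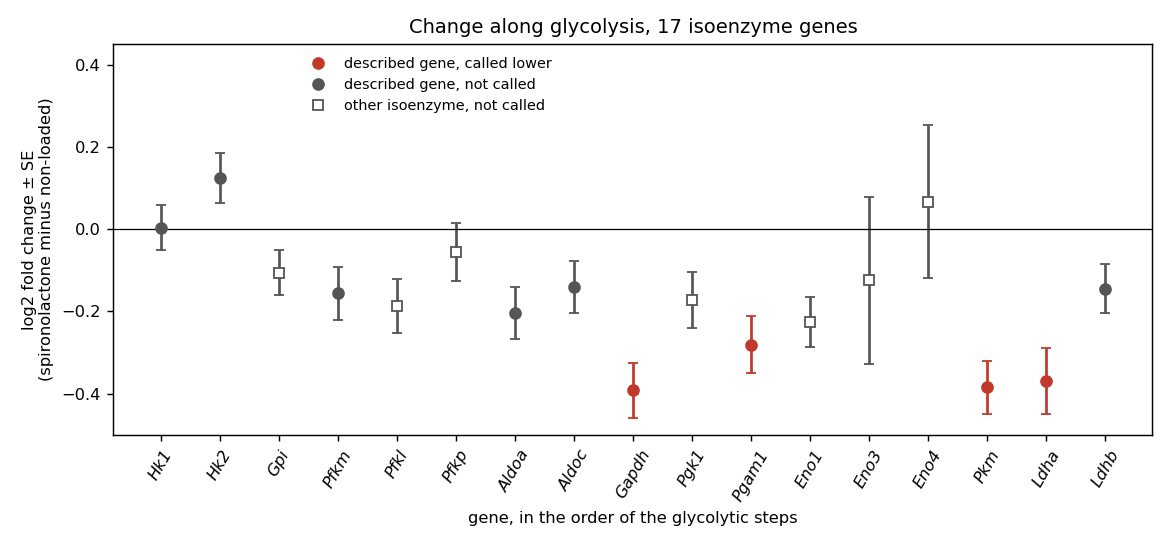
Log2 fold change ± SE (vertical axis, spironolactone minus non-loaded) of 17 tested isoenzyme genes, in the order of the glycolytic steps (horizontal axis). Red circles are the 4 described genes called lower, grey circles the other 6 described genes, and open squares 7 other isoenzymes, none of them called. The values of Gapdh, Pkm and Ldha lie lowest, near −0.4, and those of Hk1 and Hk2 lie at or above 0.

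Hexokinase traps glucose in the cell by phosphorylation. Hk1, the form found in most tissues, stood at 297.1, 309.6 and 301.8 CPM in the non-loaded libraries and at 305, 298.7 and 307.3 CPM with spironolactone. The groups overlapped, and the log2 fold change was 0.00 ± 0.05 (SE). Hk2, the inducible form that is abundant in photoreceptors, stood at 1066, 933.4 and 975.4 CPM in the non-loaded libraries and at 1123, 1035 and 1083 CPM with spironolactone. The lowest values were both non-loaded, but the first non-loaded library lay above the second spironolactone library, so the groups overlapped. Its log2 fold change was 0.12 ± 0.06 (SE).

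Phosphofructokinase commits sugar to glycolysis, and aldolase splits the product into 3-carbon sugars. Pfkm, the muscle-type phosphofructokinase, was the least abundant gene of the set per length, at 239.2 to 259.7 CPM in the non-loaded libraries and 205 to 238.4 CPM with spironolactone (log2 fold change −0.16 ± 0.06, SE). The groups did not overlap, by a margin of under 1 CPM. Aldoa, the widely expressed aldolase, ranged from 2085 to 2304 CPM without drug and from 1804 to 2020 CPM with it, also without overlap. Its log2 fold change was −0.20 ± 0.06 (SE), and the gene was not called. Aldoc, the brain-type aldolase, ranged from 1094 to 1217 CPM without drug and from 981.2 to 1120 CPM with it. These ranges overlapped, and the log2 fold change was −0.14 ± 0.06 (SE).

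Gapdh oxidises glyceraldehyde 3-phosphate and makes the NADH that lactate dehydrogenase uses again. It stood at 2219, 2146 and 1993 CPM in the non-loaded libraries and at 1761, 1579 and 1505 CPM with spironolactone. All 3 spironolactone values lay below the lowest non-loaded value. The means were 2119 ± 115 and 1615 ± 132 CPM (SD, n = 3 each), a log2 fold change of −0.39 ± 0.07 (SE). Gapdh has many processed pseudogene copies, with which RSEM can share reads, although its counts as deposited were whole in all 6 libraries. It is often used as a reference gene. Of 10 tested reference genes fixed in a list without it, 0 were called by edgeR, DESeq2 or limma-voom (2 had an unadjusted p under 0.05), and their median log2 fold change was −0.08. The smallest p in that list was that of the actin gene Actb, at −0.14 (edgeR, adjusted p = 0.222).

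Pgam1, phosphoglycerate mutase, shifts the phosphate group on the way to phosphoenolpyruvate. Its CPM were 828.5, 784.7 and 781.9 without drug and 732.7, 648.4 and 590.1 with spironolactone. The groups did not overlap, and the spironolactone libraries spread more widely (657.1 ± 71.7 CPM) than the non-loaded ones (798.3 ± 26.2 CPM, SD, n = 3 each). The log2 fold change was −0.28 ± 0.07 (SE), the smallest of the 4 called genes.

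Pkm encodes pyruvate kinase, which makes pyruvate and ATP, and gives the M1 and M2 forms by splicing. It stood at 2093, 2030 and 1798 CPM without drug and at 1563, 1530 and 1443 CPM with spironolactone. The groups did not overlap. The means were 1974 ± 155 and 1512 ± 62.3 CPM (SD, n = 3 each), and the log2 fold change was −0.39 ± 0.06 (SE). RSEM lists 2 transcripts of Pkm, and its abundance-weighted transcript length was 1780.77, 1798.41 and 1795.8 bases without drug and 1804.02, 1807.37 and 1822.86 bases with it. The longer values were all in the spironolactone libraries. The mix of the transcripts therefore differed slightly, but the tables do not say which of them is M1 or M2.

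Ldha encodes the A subunit of lactate dehydrogenase, whose tetramers favour the making of lactate. Its CPM were 1069, 1023 and 948.9 without drug and 904.8, 747.3 and 701.5 with spironolactone. The groups did not overlap, although the first spironolactone library lay nearer to the lowest non-loaded library than to the other libraries of its own group. The means were 1013 ± 60.4 and 784.5 ± 107 CPM (SD, n = 3 each), a log2 fold change of −0.37 ± 0.08 (SE). Ldhb encodes the B subunit, whose tetramers favour the use of lactate. It ranged from 201.6 to 222.4 CPM without drug and from 180.5 to 194.9 CPM with it, with no overlap, and its log2 fold change was −0.14 ± 0.06 (SE).

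**Figure D2:**
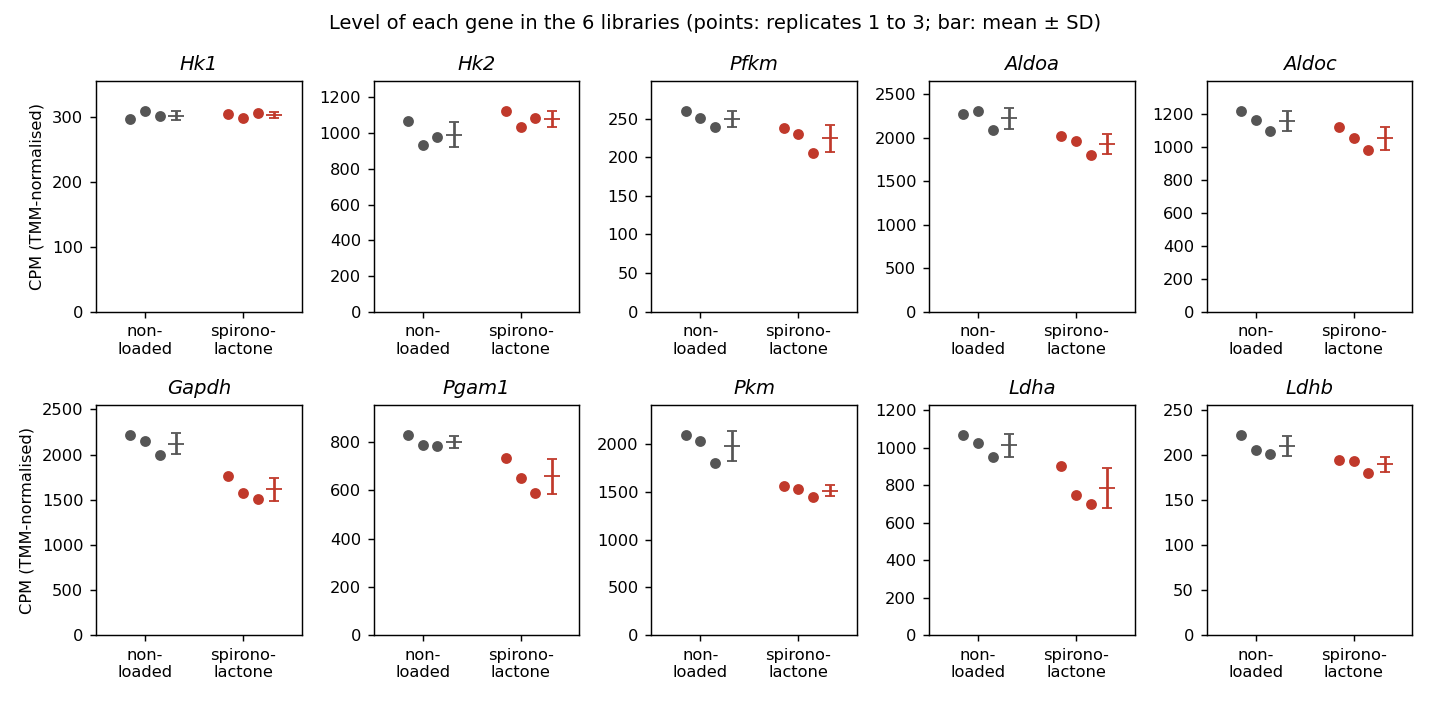
CPM with TMM scaling (vertical axis, from 0) of each of the 10 genes in the 3 non-loaded (grey) and 3 spironolactone (red) libraries. Points are libraries and bars are means ± SD. Gapdh, Pgam1, Pkm and Ldha show separate groups, while the points of Hk1, Hk2 and Aldoc overlap.

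How firmly the 4 calls stood differed between genes. Pkm was called with any 1 of the 6 libraries left out, and Gapdh in 5 of 6 such fits, the exception being without the second spironolactone library. Ldha was called in 2 of 6: the call was lost without the first or second non-loaded library and without spironolactone library 2 or 3. Pgam1 was called in 1 of 6, that without the first spironolactone library. The number of called genes in the set was 2 without the first non-loaded, the second non-loaded or spironolactone library 3, and 1 without the second spironolactone library. On log2(TPM + 1) or log2(TPM + 0.1) with limma-trend, 0 of the 10 genes were called (5 had an unadjusted p under 0.05).

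The sample titles carry numbers, 2, 3 and 4 for the non-loaded and 8, 10 and 11 for the spironolactone samples, and what these numbers stand for is not given in the labels. With the number as a covariate in the edgeR fit, 0 genes were called in all (562 had an unadjusted p under 0.05). In that fit the log2 fold changes were 0.12 ± 0.17 for Gapdh, 0.27 ± 0.17 for Pgam1, 0.00057 ± 0.18 for Pkm and 0.38 ± 0.17 for Ldha (SE). None of these 4 values was below 0, so the direction of the 4 genes holds only in fits without the number. From each library to the next in title order, the CPM of Gapdh, Pgam1, Pkm and Ldha fell, within and between the groups. This was so of Pfkm and Ldhb too, and not of Hk1, Hk2, Aldoa and Aldoc. How often such a fall occurred among all tested genes was not counted, and its cause was not tested. Group and number run together in these samples and cannot be told apart.

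To compare levels between genes, TPM, which are scaled by transcript length, were used. The order was the same in both groups: Gapdh, Aldoa, Pkm, Aldoc, Ldha, Pgam1, Hk2, Ldhb, Hk1 and Pfkm. In the non-loaded libraries the mean level ran from 4547 TPM for Gapdh and 3133 TPM for Aldoa to 174.2 TPM for Pfkm. With spironolactone it ran from 3509 TPM for Gapdh and 2756 TPM for Aldoa to 158.5 TPM for Pfkm. Among neighbours in this order, the ranges of Hk2 (310.8 to 365.8 TPM) and Ldhb (305.6 to 341.3 TPM) overlapped in the non-loaded libraries, and no other neighbours overlapped in either group. The 10 genes together made up 1.527%, 1.439% and 1.405% of all TPM in the non-loaded libraries. With spironolactone they made up 1.33%, 1.177% and 1.122%, and every one of these shares was below the lowest non-loaded share.

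The balance of isoenzymes within a step was read from the TPM of each library. Ldha made up 79.74%, 80.34% and 79.41% of the summed Ldha and Ldhb level without drug, and 79.18%, 76.02% and 76.11% with it. All 3 spironolactone shares were lower, the first by little, and the means differed by −2.73 points. Aldoa made up 68.05% ± 0.65 of the 2 aldolases without drug and 67.08% ± 0.33 with it (SD, n = 3 each), again with no overlap. The share of Hk2 in the summed Hk1 and Hk2 level was 60.98% ± 2.1 without drug and 62.99% ± 0.71 with it (SD, n = 3 each), and the groups overlapped. Pfkm, Pfkl and Pfkp took 23.35%, 53.73% and 22.92% of the phosphofructokinase level without drug, and 23.22%, 52.25% and 24.53% with it. These shares overlapped for all 3 genes.

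**Figure D3:**
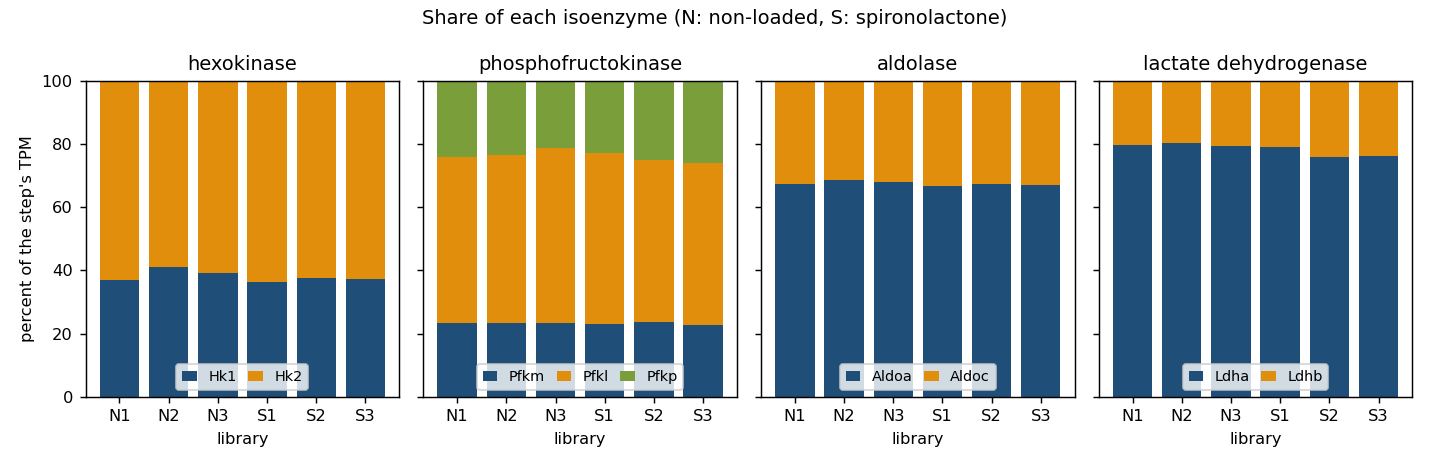
Share of each isoenzyme in the summed TPM of its step (vertical axis, percent) in each library (horizontal axis, N for non-loaded and S for spironolactone). The A subunit of lactate dehydrogenase takes 79.41% to 80.34% in the non-loaded libraries and 76.02% to 79.18% with spironolactone.

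The ratio of a pair of genes in the same library needs no scaling between libraries. Pkm stood at 6.39, 7.01 and 5.94 times the level of Hk2 in the non-loaded libraries, in TPM, and at 4.47, 4.72 and 4.22 times with spironolactone. Ldha stood at 3.67, 4.02 and 3.56 times the level of Hk2 without drug and at 2.95, 2.64 and 2.37 times with it. The groups were separate for both ratios, which follows from setting genes called lower over Hk2, the gene with the highest log2 fold change of the set, and is no further evidence. The ratio of Hk2 to Hk1 ranged from 1.44 to 1.72 without drug and from 1.66 to 1.76 with it, and overlapped.

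The sequence before the transcription start is shown for the 4 genes called lower and, for contrast, for Hk2, whose level was not lower, to set their promoters side by side. Each line gives the 250 bases before the start, 5′ to 3′ on the strand of the gene, from RefSeq with assembly GRCr8, a later build than the rn6 build named for these data. Capitals mark ACGTG on either strand (CACGT where it lies on the other strand). These letters are a form of the core of the hypoxia response element that HIF-1 binds. Other forms of that core, such as GCGTG, were neither marked nor counted. The windows are chr4:159652468-159652717 on the minus strand for Gapdh, chr1:250672902-250673151 on the plus strand for Pgam1, chr8:68953385-68953634 on the plus strand for Pkm, chr1:106507842-106508091 on the plus strand for Ldha and chr4:116841276-116841525 on the minus strand for Hk2.
Gapdh: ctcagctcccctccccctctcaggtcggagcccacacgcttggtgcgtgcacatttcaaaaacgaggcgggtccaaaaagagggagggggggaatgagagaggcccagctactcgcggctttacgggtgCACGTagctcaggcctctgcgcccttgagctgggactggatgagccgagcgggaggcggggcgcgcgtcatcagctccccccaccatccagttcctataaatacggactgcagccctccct
Pgam1: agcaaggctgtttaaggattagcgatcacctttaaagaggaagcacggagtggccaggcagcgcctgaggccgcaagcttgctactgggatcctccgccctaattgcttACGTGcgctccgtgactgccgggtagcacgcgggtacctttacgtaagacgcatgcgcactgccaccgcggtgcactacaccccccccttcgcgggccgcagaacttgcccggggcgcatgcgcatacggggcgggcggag
Pkm: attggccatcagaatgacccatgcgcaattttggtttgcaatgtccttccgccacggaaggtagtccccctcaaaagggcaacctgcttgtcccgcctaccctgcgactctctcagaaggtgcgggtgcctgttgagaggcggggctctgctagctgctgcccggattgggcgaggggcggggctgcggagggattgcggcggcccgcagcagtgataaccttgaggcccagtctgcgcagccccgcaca
Ldha: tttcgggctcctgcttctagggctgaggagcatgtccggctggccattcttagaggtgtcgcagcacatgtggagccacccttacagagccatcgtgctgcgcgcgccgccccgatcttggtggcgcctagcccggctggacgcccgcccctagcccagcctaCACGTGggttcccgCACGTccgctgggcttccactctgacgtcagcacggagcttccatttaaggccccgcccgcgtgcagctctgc
Hk2: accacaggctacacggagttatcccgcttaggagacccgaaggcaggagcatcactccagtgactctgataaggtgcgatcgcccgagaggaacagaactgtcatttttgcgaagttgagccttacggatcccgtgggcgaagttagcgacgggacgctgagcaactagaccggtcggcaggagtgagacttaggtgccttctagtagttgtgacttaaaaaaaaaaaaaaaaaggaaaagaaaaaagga
All 10 genes had an entry, with 13 starts in all. The letters ACGTG occurred on either strand in 7 of the 13 windows (53.8%), beside 16.6% of 33469 windows of the same length in the whole table and 21.2% of the 11191 windows of tested genes. The 7 genes were Hk1, Pfkm, Aldoa, Aldoc, Gapdh, Pgam1 and Ldha. Among the 4 genes called lower, the match began 121 bases before the start in Gapdh and 141 bases before it in Pgam1, and there were 3 matches in Ldha, at 87, 86 and 73 bases. Of the Ldha matches, those at 87 and 86 overlap on opposite strands as the E-box CACGTG, which 7.95% of the windows of tested genes hold. The letters ACGTG do not occur in the windows of Pkm and Hk2. The core bound by the photoreceptor factor CRX, TAATCC, occurred on either strand in the Pgam1 window alone of the 13, and in 4.65% of the windows of tested genes. A match of letters is a description and says nothing of binding.

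Of 17 further isoenzymes of the same steps found in the tables, 8 were tested. None of the 8 was called by edgeR, 3 had an unadjusted p under 0.05, and DESeq2, limma-voom and edgeR with robust shrinkage each called 1, Eno1. Their median log2 fold change was −0.14, and 7 of 8 values were below 0. Eno1, the widely expressed enolase that acts between Pgam1 and Pkm, stood at 1804, 1687 and 1699 CPM without drug and at 1559, 1496 and 1380 CPM with it. Its groups did not overlap, and its log2 fold change of −0.23 ± 0.06 (SE) had an adjusted p of 0.0588 (edgeR). The adjusted p of Eno1 was 0.0052 by DESeq2, 0.023 by limma-voom and 0.0244 by edgeR with robust shrinkage, and it ranged from 0.0199 to 0.259 by edgeR with 1 library left out. Pfkl, the liver-type phosphofructokinase, had a log2 fold change of −0.19 ± 0.07 (SE, edgeR, adjusted p = 0.161). Pgk1, phosphoglycerate kinase, had −0.17 ± 0.07 (SE, edgeR, adjusted p = 0.222), and Gpi, glucose-6-phosphate isomerase, −0.11 ± 0.06 (SE, edgeR, adjusted p = 0.378). Pfkp, the platelet-type phosphofructokinase, had a log2 fold change of −0.06 (edgeR, adjusted p = 0.759). Eno3 and Eno4, the muscle-type and the sperm-associated enolase, were low, at 4.245 to 8.58 CPM, and were not called. Without the first spironolactone library, 3 of the 8 genes were called: Eno1, Pfkl and Pgk1.

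The other 9 isoenzymes, among them Hk3, Tpi1, Gapdhs, Pgk2, Pgam2, Eno2, Pklr and Ldhc, had at most 7 counts in any library and did not pass the filter. Among them, Tpi1, triose phosphate isomerase, and Eno2, the neuronal enolase, are listed at 0 or 1 count in every library. The housekeeping gene Hprt1 is likewise listed at 0 in all 6 libraries, so an entry of 0 in these tables can be a failed estimate, and no change of Tpi1 or Eno2 was measured. Counting the described set and the other isoenzymes together, 4 of 18 tested isoenzymes were called, all lower, and 15 of 18 log2 fold changes were below 0. Among all tested genes 0.763% were called lower and 50.7% had a log2 fold change below 0. All 4 calls and 8 of the 15 values below 0 belong to the described set. That set was chosen with earlier results of this comparison known, so nothing is read from the pooled counts.

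Around glycolysis, 62 genes of 8 neighbouring pathway lists were tested, and 2 were called by edgeR, both lower (13 had an unadjusted p under 0.05). Among all 13242 tested genes 2.63% were called, and 2098 had an unadjusted p under 0.05. No excess over all tested genes is read from the counts of these lists. Slc16a1, which encodes the monocarboxylate transporter MCT1, stood at 255.4, 272 and 210.9 CPM without drug and at 192.7, 194.9 and 189.4 CPM with it. The 3 spironolactone values lay close together, below all non-loaded values. The log2 fold change was −0.36 ± 0.08 (SE, edgeR, adjusted p = 0.0179). Mdh1, the cytosolic malate dehydrogenase of the malate-aspartate shuttle that carries NADH electrons into mitochondria, stood at 437, 447.3 and 405.9 CPM without drug and at 374.3, 338.5 and 329.6 CPM with it. The groups did not overlap, and the log2 fold change was −0.31 ± 0.06 (SE, edgeR, adjusted p = 0.013). Both calls were lost without the first or second non-loaded library or spironolactone library 2 or 3. For Slc16a1 the edgeR adjusted p then ranged from 0.0674 to 0.11, and for Mdh1 from 0.0635 to 0.124. On log2(TPM + 1) with limma-trend both had an adjusted p of 0.102, and with the title number as a covariate the edgeR log2 fold changes were −0.05 and 0.09.

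In the other lists edgeR called 0 genes, and the gene with the smallest p is given for each. Among 6 regulators of glycolytic flux (3 with an unadjusted p under 0.05) it was Tigar, a fructose bisphosphatase, with a log2 fold change of −0.25 (edgeR, adjusted p = 0.207). Among 6 glucose transporters (1 unadjusted) it was Slc2a8, with −0.25 (edgeR, adjusted p = 0.258). Slc2a1, which encodes the main glucose transporter GLUT1 of the retina, stood at 212.9 ± 8.41 CPM without drug and 223.3 ± 12.5 CPM with it (SD, n = 3 each). Among 13 genes of mitochondrial pyruvate entry (1 unadjusted) it was Pdhb, a subunit of pyruvate dehydrogenase, with −0.15 (edgeR, adjusted p = 0.312). Among 7 genes of the pentose phosphate pathway (0 unadjusted) it was Rpia, with −0.21 (edgeR, adjusted p = 0.497). Among 9 genes of glycogen metabolism (1 unadjusted) it was Pygl, the liver-type glycogen phosphorylase, with −0.22 (edgeR, adjusted p = 0.222). DESeq2, limma-voom and robust shrinkage also called 0 genes in these 5 lists.

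A list of 6 genes, named for transcription factors of glycolytic genes, also held Txnip, which is not a transcription factor. The smallest p in the list was that of Hif1a, the oxygen-regulated subunit of HIF-1, whose activity is set mainly by protein stability. Hif1a stood at 707.3, 728.6 and 736.1 CPM without drug and at 795.9, 818.7 and 815.7 CPM with it. Every spironolactone library lay above every non-loaded library, the opposite order to that of the 4 genes called lower. The share of all tested genes with this higher order was not counted. The log2 fold change of 0.16 ± 0.05 (SE) was not called by edgeR (adjusted p = 0.134) and was called by DESeq2 (adjusted p = 0.0394). Hif1a was not called by limma-voom (adjusted p = 0.0736) or edgeR with robust shrinkage (adjusted p = 0.0888). By edgeR with 1 library left out its adjusted p ranged from 0.101 to 0.36. With the title number as a covariate its edgeR log2 fold change was 0.04. Bsg, which encodes basigin, the partner that brings MCT1 to the membrane, had −0.15 (edgeR, adjusted p = 0.176). Nxnl1, which encodes the rod-derived cone viability factor that acts through basigin, had −0.16 (edgeR, adjusted p = 0.216). Neither was called, and their groups did not overlap.

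**Figure D4:**
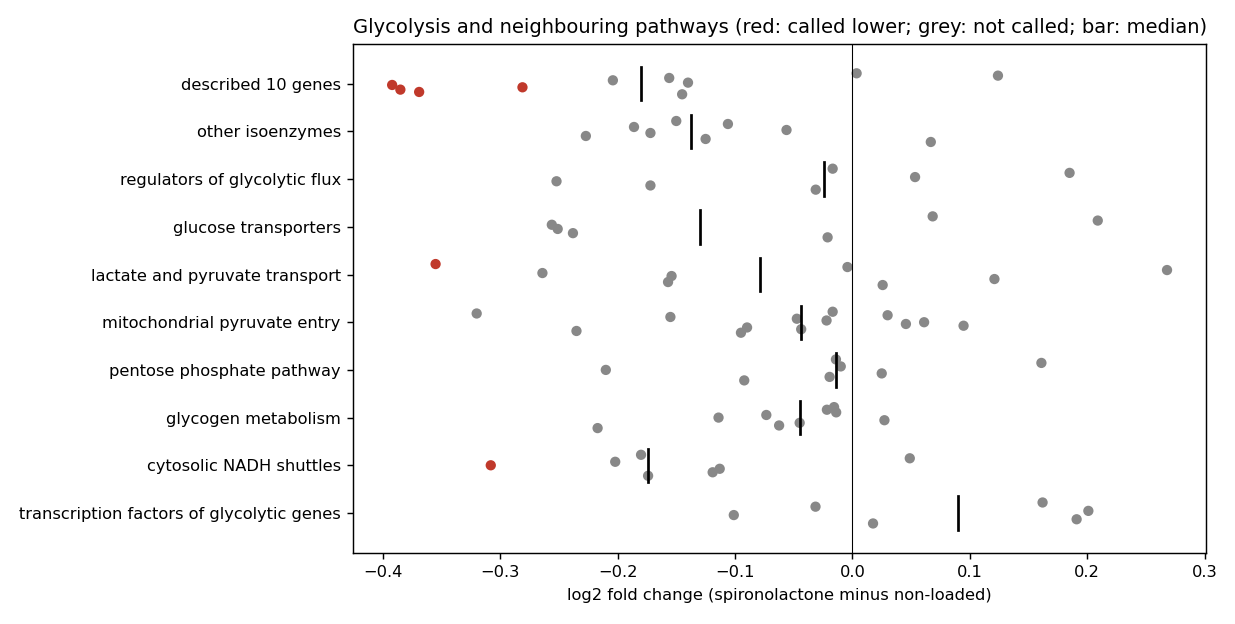
Log2 fold change (horizontal axis, spironolactone minus non-loaded) of each tested gene in the described set, the other isoenzymes and 8 neighbouring pathway lists. Red points are genes called lower, grey points were not called, and black bars are medians. The median of the described 10 genes is −0.18, and that of the list named for transcription factors, which includes Txnip, is 0.09.

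Rod photoreceptor markers were lower in the same libraries. Of 17 tested rod markers, 8 were called lower, and the summed rod level ranged from 57750 to 70560 CPM without drug and from 48930 to 53990 CPM with it. Gnat1, which encodes rod transducin, had a log2 fold change of −0.78 ± 0.11 (SE, edgeR, adjusted p = 0.000705). The count of rod markers called was 8 also by DESeq2 and limma-voom, 4 with robust shrinkage, 1 on log2(TPM + 1) with limma-trend and 0 with the title number as a covariate. Relative to the non-loaded mean, the sum of the 4 glycolytic genes called lower was 105%, 101% and 93.5% without drug and 84%, 76.3% and 71.8% with it. The rod sum was 107%, 106% and 87.2% without drug and 76.5%, 81.6% and 73.9% with it. The other 6 glycolytic genes summed to 104%, 101% and 95.4% without drug and to 97.5%, 92.9% and 88.9% with it, and these groups overlapped. The 4 and the 6 genes were split by their calls in this same comparison. The separate groups of the 4 follow from that split and are no further evidence. In bulk tissue, fewer cells of a type and less RNA per cell cannot be told apart, and the part of rods in the glycolytic values was not tested.

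The marker sums of Müller glia and bipolar cells lay close to the non-loaded mean. The Müller glia sum was 97.2% to 101% of the non-loaded mean with spironolactone and the bipolar sum 97.2% to 106%. The cone sum ranged from 493.7 to 546.8 CPM without drug and from 436.6 to 494.2 CPM with it. The log2 fold change was below 0 in 9 of 10 cone, 9 of 10 Müller and 2 of 6 bipolar markers, beside 50.7% of all tested genes. The median log2 fold changes were −0.13, −0.06 and 0.06, in that order. By edgeR, 0 of 10 Müller, 0 of 6 bipolar and 0 of 10 cone markers were called (0, 0 and 2 with an unadjusted p under 0.05), and DESeq2 called 0, 0 and 1. Outside the rods, edgeR called 2 markers, both higher. Vwf, the endothelial von Willebrand factor, had a log2 fold change of 0.55 ± 0.14 (SE, edgeR, adjusted p = 0.0404), and DESeq2 called it too (adjusted p = 0.00601). Of the 5 tested endothelial markers, 3 had a log2 fold change below 0, and the median was −0.06. Hba-a2, an erythrocyte globin gene with near-identical copies, had 0.58 ± 0.14 (SE, edgeR, adjusted p = 0.0304) with overlapping groups, and DESeq2 did not call it (adjusted p = 0.176). Neither was called by limma-voom or with robust shrinkage. With 1 library left out, Vwf was called by edgeR only without the second spironolactone library and Hba-a2 only without spironolactone library 3. Their part in the glycolytic values was not tested. Markers of tissues next to the neuroretina differed between single libraries. The pigment epithelium sum ranged from 99.09 to 126 CPM without drug and from 48.23 to 113.8 CPM with it. Krt12, a keratin of the cornea, stood at 25.1 CPM in the first spironolactone library and at 0.2023 to 1.891 CPM in the other 5. Without that library, 5 of the 10 glycolytic genes were called, Aldoa being the added one.

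**Figure D5:**
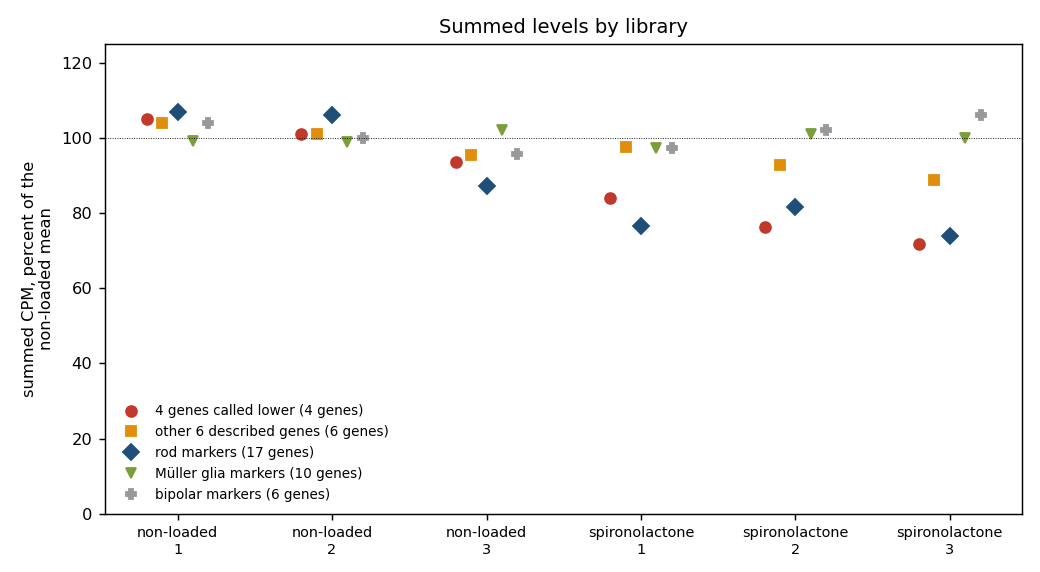
Summed CPM of gene groups in each library (vertical axis, percent of the non-loaded mean). The sum of the 4 genes called lower lies at 93.5% to 105% in the non-loaded libraries and at 71.8% to 84% with spironolactone, beside rod markers at 73.9% to 81.6% and Müller glia markers at 97.2% to 101%. The 4 genes were picked by their calls in this same comparison.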

How the data were processed

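RNA was sequenced from 6 neuroretina samples, 3 per group, grouped by the treatment given in the labels. Per the labels' protocols, total RNA was made into libraries with a stranded mRNA kit. The submitters' processing notes name the rn6 build, STAR 2.5.3a, RSEM 1.2.28, Trimmomatic and FastQC, with no roles. Annotation and use of strand in counting: not given in the sources used here. Without strand, sense and antisense reads cannot be told apart. The authors deposited, per the file headers, unnormalised expected counts per gene, TPM, FPKM (not used here) and gene and effective lengths. RSEM shares reads among similar genes by likelihood.

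Expected counts were rounded and filtered with filterByExpr, which kept at least 99.91% of each library's counts. Groups were compared with edgeR 4.0.16 (TMM, glmQLFit, glmQLFTest, two-sided, R 4.3.3) with Benjamini-Hochberg adjustment over 13242 genes. Positive values mean higher with spironolactone, and the edgeR test was tested on simulated data. No column of another series was present. The 10 genes and all lists were chosen with earlier results of these data known. Named genes are the 10, every other isoenzyme, up to 4 called genes or otherwise the smallest p in each neighbouring list, and the 5 nearest genes by correlation. Slc2a1, Bsg and Nxnl1, and Gnat1, Vwf, Hba-a2 and Krt12 among the markers, were named outside this rule after their values were seen. Some genes are included in counts and sums but not reported here. Of 213 names in 22 lists, 10 were not matched. Alternatives were 3 other scalings, 2 other filters, DESeq2 1.42.0, limma-voom and limma-trend on TPM (limma 3.58.1), robust shrinkage, effective length as an offset, the title number as a covariate and each library left out. Promoter sequences are from RefSeq (GRCr8), matched by symbol.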

Additional observations from a re-analysis of the deposited data

How the results depend on the processing

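Over the 11 alternatives on the same libraries, Gapdh, Pgam1, Pkm and Ldha were each called in 9, all but the 2 fits on TPM, and Aldoa was called in 3 (no filter, DESeq2 and limma-voom). Of 180 log2 fold changes of the 10 genes under all alternatives, 170 moved by less than 1 SD of the libraries and 6 moved further. The other 4 were counted as reversed, a label kept for the 4 genes called in the main fit. With the title number as a covariate the reversed values were 0.116 for Gapdh, 0.271 for Pgam1, 0.000572 for Pkm and 0.377 for Ldha, and the cause was not tested. Pfkm (0.267), Aldoa (0.151), Aldoc (0.297) and Ldhb (0.15), among the 6 that moved further, also changed from below to above 0 in that fit. In that fit 0 genes were called in all, 0 of the 10 and 0 in neighbouring pathways. All genes called numbered 348, and 602 with no filter, 100 on log2(TPM + 1), 95 on log2(TPM + 0.1) and 111 (without the second spironolactone library) to 621 (without the first) with 1 library left out. On those TPM scales 82% and 83.2% of calls were higher, beside 71% on counts. Of the 10 genes, 0 were called on either TPM scale and 1 to 5 with 1 library left out. Of the other isoenzymes 1 was called with no filter, DESeq2, limma-voom or robust shrinkage, and 0 to 3 with 1 library left out. In neighbouring pathways 0 were called on either TPM scale and 0 to 2 with 1 library left out. The 3 differences in isoenzyme share (Ldha, Aldoa and Hk2) moved by less than 1 SD in all 21 alternative values. Without the second non-loaded library the Aldoa difference was −0.62 points in place of −0.966. The Hk2 difference of 2.01 points was 3.11 without the first and 1.04 without the second non-loaded library. No paired analysis was run because the labels give no pairing between samples of the groups. The 10 genes had at least 1998 counts in each library, and how far depth limited their comparison was not tested.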

Other observations

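The genes whose levels followed the 10 glycolytic genes most closely from library to library were sought after centring log2 CPM within each group, over 6 libraries and 9850 genes with a mean log2 CPM of at least 3. The highest Pearson r with the mean of the 10 genes was 0.998 for Cpne4, a calcium-dependent membrane-binding protein. Mbp, myelin basic protein, had 0.997, Ndufa8, a subunit of respiratory complex I, 0.9956, Rnf139, a ubiquitin ligase, 0.9956, and Cldn12, a claudin, 0.9952. These are the extremes of 9850 values over 6 libraries that share their depth and scaling, and they are given as a description only. None of these 5 genes was called by edgeR, and their log2 fold changes ranged from −0.37 for Mbp (adjusted p = 0.279) to 0.02 for Rnf139 (adjusted p = 0.944). Ndufa8 had the smallest adjusted p of the 5, at 0.0756 with a log2 fold change of −0.24.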
